A study of Mus musculus with 7 samples.

Results

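The drug-metabolising cytochrome P450 enzymes of the mouse liver outside the Cyp2c subfamily were followed in Albumin-positive areas of liver sections from mice on 2 diets. The set holds every target of the deposited count table whose symbol begins with Cyp1, Cyp2 or Cyp3 followed by a subfamily letter and a number, without Cyp2c. It comprised 33 of 19951 gene targets, in 15 subfamilies, and 24 of the 33 lay in the deposited filtered table of 13095 genes that was tested. The other 9 are described by their levels. RNA was read with the GeoMx whole transcriptome assay, in which bar-coded probes bound to RNA in an illuminated area of a fixed section are released and counted by sequencing. Each diet, NCD or FFD, had 3 areas (regions), and all mice were 24 weeks old. The labels give the diets by these abbreviations only, in a field named genotype. Comments in the deposited segment table mark all 6 regions as WT, and the regions were chosen as positive for Albumin and negative for CLEC4F, a Kupffer cell protein. Sex is not given in the labels. The series text gives 3 mice per diet without saying which region came from which, so p-values measure the spread between these regions.

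Cytochromes P450 of families 1 to 3 sit in the endoplasmic reticulum, where they use haem, oxygen and electrons from P450 oxidoreductase (Por) to oxidise drugs, toxins, steroids and fatty acids. In liver, the aryl hydrocarbon receptor (AhR) drives the Cyp1 genes, the receptor CAR drives Cyp2b10 and the receptor PXR drives Cyp3a11. Hepatocytes around the central vein hold most Cyp1a2 and Cyp2e1, and those around the portal vein hold most Cyp2f2 in mice. Many of these genes arose by local duplication and still lie side by side.

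Of the 24 tested targets, 12 were lower in FFD regions and 0 were higher by edgeR's quasi-likelihood test at an adjusted p of 0.05. Over all 13095 genes, 11.1% were lower and 5.94% were higher. The lower targets were Cyp1a2, Cyp3a25, Cyp2u1, Cyp2d12, Cyp2j9, Cyp2a4, Cyp2r1, Cyp2j12, Cyp3a41a, Cyp2b23, Cyp2d10 and Cyp2j5. The log2 fold change (FFD over NCD) was negative for 23 of 24 targets (17 of 24 with scaling by the negative probes), and its median was -0.60, against -0.11 over all tested genes. With upper quartile scaling, all 3 FFD regions lay below all 3 NCD regions for 15 of 24 targets, against 24.5% of all genes. These 15 included Cyp2e1, by a very narrow margin in FFD 2. At an unadjusted p under 0.05, 17 targets were lower and 0 were higher, against 22.5% and 10.6% of all genes. The DESeq2 test called 10 lower and 0 higher (3.99% and 6.4% of all genes with an adjusted p). Limma voom called 13 and 0 (10.7% and 5.9%), and limma trend called 12 and 0 (11.7% and 6.09%). A section mixes cells, so fewer hepatocytes in a region and less of an RNA per hepatocyte cannot be told apart.

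Background and the make-up of the regions differed between the diets. NCD regions held 1747 to 1940 nuclei and FFD regions 1077 to 1264. Regions held 2069101 to 3491372 counts over the tested genes. The limit used here for a detected target is 2 times the negative probe level of its region, and the negative probe level over the region's upper quartile count was 0.241 to 0.264 in NCD and 0.172 to 0.206 in FFD. Of the 33 targets, 20 were above the limit in all 3 regions of at least 1 diet, 4 only in some regions and 9 in no region. Of the 20 targets with a mean count above the limit, 11 were lower, against 11.7% of the 8935 genes on that side (8.41% were higher). Their median log2 fold change was -0.64, against -0.03 for those genes. The 10 hepatocyte markers had a summed level of 100915 to 142247 CPM (counts scaled to library size by the upper quartile) in NCD regions and 57782 to 88872 in FFD regions, and 3 of the 10 were lower. All 10 were above the limit in all 6 regions. For this and the other marker lists, the shares over all tested genes were 11.1% lower and 5.94% higher by edgeR. Kupffer cell markers summed to 948 to 1246 CPM in NCD and 1434 to 2090.0 in FFD regions (5 of 10 higher, 1 lower), although the CLEC4F gene itself stood at 121 CPM in NCD and 122 in FFD. Markers of lipid-associated macrophages summed to 159 to 197 CPM in NCD and 441 to 912 in FFD regions (7 of 7 tested were higher), and those of stellate cells and fibroblasts to 481 to 535 and 833 to 1428 (7 of 10 higher and 0 lower by edgeR, 8 and 0 at an unadjusted p under 0.05, 6 and 0 by DESeq2). Endothelial markers summed to 409 to 460 CPM in NCD and 333 to 469 in FFD regions (1 of 7 lower, 1 higher), and lymphocyte markers to 130 to 187 and 114 to 131 (1 of 4 lower). Neutrophil markers summed to 140.2 to 149.7 CPM and 127 to 139 (1 of 5 lower), and cholangiocyte markers to 71.5 to 87.0 and 65.8 to 123, with 0 of 2 called. No marker read 0 in any region, and the part of these cell types in the P450 values was not tested.

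**Figure D1:**
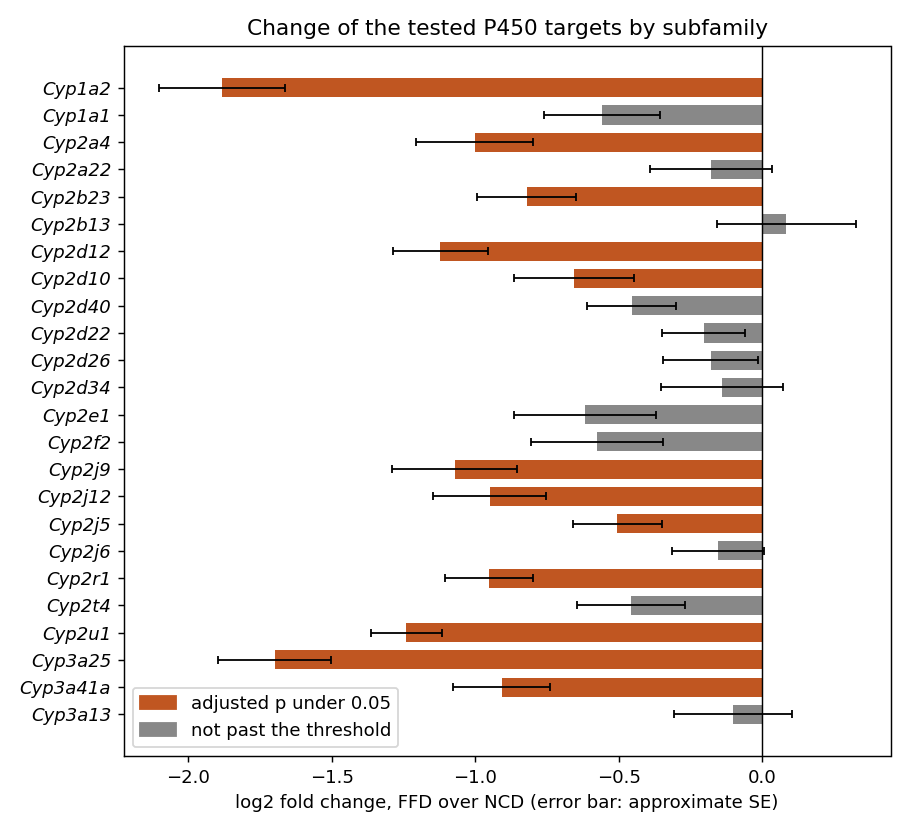
Log2 fold change (FFD over NCD, horizontal axis) of the 24 tested P450 targets, grouped by subfamily, with bars for the estimate and error bars for the approximate SE; orange marks an adjusted p under 0.05. Cyp1a2 and Cyp3a25 reach -1.88 and -1.70, and Cyp2b13 is the only target with a positive value at this scaling, whereas 17 of 24 are negative with negative probe scaling.

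Promoters of 4 genes are shown because they frame the contrast: Cyp1a2 and Cyp3a25 had the 2 largest falls, Cyp3a13 is a Cyp3a gene that did not pass the test, and Cyp2e1 had the most counts. Each runs from 250 bases before the start to 50 bases after it, 5′ to 3′ on the gene's strand, from RefSeq on GRCm38.p6. Capitals mark matches to any of 4 motifs, which share no letters in these windows. The motifs are the TATA box TATAAA (gene's strand only), and on both strands the nuclear receptor half-site AGGTCA, the AhR core GCGTG and the HNF1 half-site GTTAAT.
Cyp1a2, chr9:57683606-57683905, minus strand: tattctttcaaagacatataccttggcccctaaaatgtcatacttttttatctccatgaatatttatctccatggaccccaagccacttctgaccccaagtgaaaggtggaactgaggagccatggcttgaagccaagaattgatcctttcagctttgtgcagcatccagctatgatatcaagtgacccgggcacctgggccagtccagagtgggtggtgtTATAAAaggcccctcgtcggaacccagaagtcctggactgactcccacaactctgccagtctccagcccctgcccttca
Cyp3a25, chr5:146009569-146009868, minus strand: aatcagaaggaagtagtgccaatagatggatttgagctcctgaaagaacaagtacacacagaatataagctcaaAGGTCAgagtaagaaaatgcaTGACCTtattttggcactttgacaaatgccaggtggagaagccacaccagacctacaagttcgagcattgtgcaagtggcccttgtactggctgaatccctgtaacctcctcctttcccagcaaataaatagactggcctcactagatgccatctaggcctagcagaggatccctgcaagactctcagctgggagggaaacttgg
Cyp3a13, chr5:137921570-137921869, minus strand: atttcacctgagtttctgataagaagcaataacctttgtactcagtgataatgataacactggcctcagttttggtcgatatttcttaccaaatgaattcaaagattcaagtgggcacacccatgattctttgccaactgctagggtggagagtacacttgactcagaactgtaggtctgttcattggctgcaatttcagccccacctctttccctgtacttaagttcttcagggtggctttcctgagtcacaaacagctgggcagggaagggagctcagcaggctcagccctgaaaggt
Cyp2e1, chr7:140763569-140763868, plus strand: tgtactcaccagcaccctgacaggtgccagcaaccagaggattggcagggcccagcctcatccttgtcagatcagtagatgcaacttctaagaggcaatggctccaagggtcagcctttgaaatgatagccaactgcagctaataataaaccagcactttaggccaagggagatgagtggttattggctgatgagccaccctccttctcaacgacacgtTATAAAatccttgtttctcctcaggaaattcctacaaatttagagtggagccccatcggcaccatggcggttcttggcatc
TATAAA began 29 bases before the start in Cyp1a2 and 31 bases before it in Cyp2e1. Cyp3a25 held AGGTCA 176 bases before the start and its reverse complement 155 bases before it, and no motif matched in the Cyp3a13 window. RefSeq promoters were matched by symbol for 28 of the 33 targets, and a target shared by several genes has the promoter of the gene that names it. TATAAA stood in 6 of the 28 (21.4%), against 8.88% of 27025 promoters. That comparison set has 1 promoter per gene and leaves out a chromosome that holds none of the 33 targets. AGGTCA stood in 9 of 28 (32.1%, against 16.0%), GCGTG in 8 of 28 (28.6%, against 32.5%) and GTTAAT in 2 of 28 (7.14%, against 7.20%). Among the 10 lower and the 10 tested but uncalled targets with a promoter, TATAAA stood in 3 and 3, AGGTCA in 4 and 4, GCGTG in 3 and 1, and GTTAAT in 1 and 1. These are matches of letters in short windows and say nothing about binding.

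The Cyp1 family, the AhR-driven enzymes of aromatic amine and hydrocarbon metabolism, holds the target with the largest fall of the set, its only target called lower. Cyp1a2, which clears caffeine and aromatic amines, lies at chr9:57676937-57683655. Its level was 501, 493 and 550.3 CPM in NCD regions 1 to 3 and 162, 174 and 81.1 CPM in FFD regions 1 to 3. The FFD regions were all below the NCD regions, FFD 3 by the widest margin. The fall was 3.69-fold (log2 fold change -1.88 ± 0.22 SE, n = 3 regions per diet, adjusted p = 4.17e-05 by edgeR), and its summed share with Cyp1a1 fell from 0.0462% of counts (SD 0.0012) to 0.0144% (SD 0.0052). Cyp1a1, the inducible hydrocarbon hydroxylase, stood under the limit in all 6 regions, at 13.6, 14.3 and 16.3 CPM in NCD and 10.3, 8.42 and 12.0 in FFD. Its log2 fold change of -0.56 did not pass (edgeR adjusted p = 0.0688). Cyp1b1, found mostly outside hepatocytes, was over the limit in 1 FFD region and had 13.1 to 15.1 CPM in NCD and 11.2 to 19.1 in FFD, with overlap.

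In the Cyp3a subfamily, the major enzymes of drug and steroid oxidation in liver, both outcomes occurred. Cyp3a25 (chr5:145977192-146009644) was at 1450.2, 1398 and 969.5 CPM in NCD and 462, 306 and 409 CPM in FFD regions. All NCD regions lay far above all FFD regions. Its fall was 3.25-fold (log2 fold change -1.70 ± 0.20 SE, edgeR adjusted p = 4.13e-05). The target named Cyp3a41a is shared with Cyp3a11, Cyp3a16, Cyp3a41b and Cyp3a44, so the PXR-induced Cyp3a11 and the female-biased Cyp3a41 and Cyp3a44 genes could not be separated. It stood at 46.2, 50.0 and 33.6 CPM in NCD and 24.4, 21.2 and 22.9 in FFD regions, over the limit in each and only just so in FFD. It was lower without overlap (log2 fold change -0.91 ± 0.17 SE, edgeR adjusted p = 0.00216), and by -1.35 with the negative probe level subtracted. Cyp3a13 (chr5:137892933-137925610) was at 103, 99.3 and 123 CPM in NCD and 69.4, 89.2 and 146 in FFD regions. FFD 3 was the highest region of all 6 for Cyp3a13 and FFD 1 the lowest, and the difference did not pass (log2 fold change -0.10 ± 0.21 SE, edgeR adjusted p = 0.768). The within-region log2 ratio of Cyp3a25 to Cyp3a13, which no scaling alters, averaged 3.54 (SD 0.48) in NCD and 1.999 (SD 0.65) in FFD regions. That pair, and the pairs of relatives below, were chosen after their values were seen and carry no test.

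**Figure D2:**
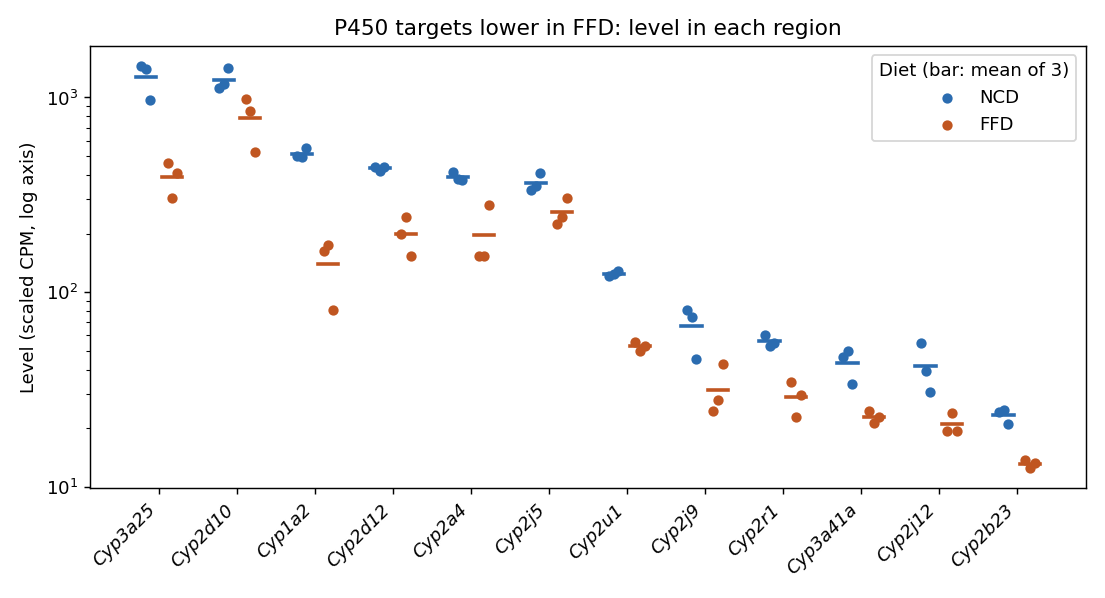
Level (CPM after upper quartile scaling, log axis) of the 12 P450 targets lower in FFD, 1 point per region with a bar at the mean of 3 regions; NCD is blue and FFD orange. The FFD points lie below the NCD points for all 12 targets, most closely for Cyp2j9 at 42.6 against 45.5 CPM. Levels of different targets rest on different probes and are not comparable with each other.

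The Cyp2d cluster on chromosome 15, relatives of human CYP2D6, had 6 targets and split likewise. Cyp2d12 (chr15:82555043-82559413) was at 439, 421 and 437 CPM in NCD and 198, 244 and 153 in FFD regions. The NCD regions lay close together and far above all FFD regions, a fall of 2.18-fold (log2 fold change -1.12 ± 0.17 SE, edgeR adjusted p = 0.000376). The target named Cyp2d10 also binds Cyp2d9, the male-biased testosterone hydroxylase, and Cyp2d11. It was at 1115, 1171 and 1417 CPM in NCD and 979, 848 and 524 in FFD regions. The log2 fold change was -0.66 ± 0.21 SE (edgeR adjusted p = 0.0412), and the call was lost in 12 of 18 alternatives, over which the adjusted p ran from 0.0179 to 0.402. Without FFD 3, its lowest region, the log2 fold change was -0.43, which is over 1.5 times smaller (adjusted p = 0.117), and the call was also lost without NCD 1, NCD 2, NCD 3 or FFD 2. Cyp2d26 was at 967, 995 and 1181 CPM in NCD and 931, 798 and 1047 in FFD regions, overlapping (log2 fold change -0.18 ± 0.16 SE, edgeR adjusted p = 0.473). Cyp2d22 had 86.5, 87.9 and 108 CPM against 79.7, 94.8 and 70.7, and also overlapped (log2 fold change -0.20). Leaving out 1 region moved Cyp2d22 between -0.33 (without FFD 2) and -0.09 (without NCD 3), and Cyp2d26 between -0.28 (without FFD 3) and -0.08 (without FFD 2). Cyp2d40 had 72.0, 66.0 and 87.8 CPM against 67.5, 50.2 and 48.2 (log2 fold change -0.45 ± 0.16 SE, edgeR adjusted p = 0.0555), and it passed in 3 of 18 alternatives (adjusted p from 0.0183 to 0.790), among them without FFD 1 (0.0183). Cyp2d34 was under the limit in every region, at 11.2 to 19.8 CPM in NCD and 12.8 to 14.0 in FFD. Within regions, the log2 ratio of Cyp2d12 to Cyp2d26 averaged -1.27 (SD 0.15) in NCD and -2.24 (SD 0.53) in FFD regions. The log2 ratio of Cyp2d10 to Cyp2d26 was 0.20, 0.23 and 0.26 in NCD regions. In FFD regions it was 0.07, 0.09 and -0.999, with FFD 3 far below the others.

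The Cyp2j genes on chromosome 4 encode epoxygenases of arachidonic acid, and 3 of the 4 tested were lower, against 11.1% of all tested genes. Cyp2j5, prominent in mouse kidney and liver, was at 334, 349 and 409.8 CPM in NCD and 224, 243 and 304 in FFD regions. The diets did not overlap, but FFD 3 came close to NCD 1. The log2 fold change was -0.51 ± 0.16 SE (edgeR adjusted p = 0.0360), and the call was lost in 12 of 18 alternatives (adjusted p from 0.0133 to 0.674), including without NCD 1, NCD 2, NCD 3, FFD 1 or FFD 2. Cyp2j9 was at 80.7, 74.4 and 45.5 CPM in NCD and 24.4, 27.7 and 42.6 in FFD regions (log2 fold change -1.07 ± 0.22 SE, edgeR adjusted p = 0.00395). Its spread was wide in both diets, and NCD 3 and FFD 3 nearly met. Cyp2j12 was at 54.5, 39.5 and 30.7 CPM in NCD and 19.4, 24.0 and 19.3 in FFD regions, where only 1 region was over the limit (log2 fold change -0.95 ± 0.20 SE, edgeR adjusted p = 0.00471; -1.48 with the negative probe level subtracted). Cyp2j6, the neighbour of Cyp2j9, was at 90.4, 78.6 and 115 CPM against 102, 79.8 and 74.3. Its groups overlapped and the log2 fold change of -0.15 ± 0.16 SE did not pass (edgeR adjusted p = 0.533). Within a region, the log2 ratio of Cyp2j9 to Cyp2j6 was -0.16, -0.08 and -1.34 in NCD regions. In FFD regions that ratio was -2.07, -1.52 and -0.80, which overlapped the NCD values. The summed share of the 7 Cyp2j targets was 0.0531% of counts (SD 0.0012) in NCD and 0.0408% (SD 0.0018) in FFD regions.

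On chromosome 7 a cluster holds the Cyp2a and Cyp2b genes with Cyp2f2, Cyp2g1, Cyp2s1 and Cyp2t4. The target named Cyp2a4, a steroid hydroxylase with female bias, also binds Cyp2a5, the coumarin hydroxylase. It was at 415, 382 and 379 CPM in NCD and 153, 153 and 281 in FFD regions. FFD 3 stood well above the other two FFD regions yet below every NCD region (log2 fold change -1.002 ± 0.20 SE, edgeR adjusted p = 0.00387; -1.35 without FFD 3). The target named Cyp2a22, shared with the steroid hydroxylase Cyp2a12, was at 200.3, 179.6 and 233 CPM against 233, 109.7 and 201, with only FFD 2 below the NCD range (log2 fold change -0.18 ± 0.21 SE, edgeR adjusted p = 0.595). The log2 ratio of these 2 targets within a region was 1.05, 1.09 and 0.70 in NCD and -0.60, 0.48 and 0.48 in FFD regions, which did not overlap.

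The Cyp2b genes were at low levels. Cyp2b23 was lower (log2 fold change -0.82 ± 0.17 SE, edgeR adjusted p = 0.00499) with 24.3, 24.8 and 21.0 CPM in NCD and 13.7, 12.5 and 13.2 in FFD, but it was under the limit in all 6 regions. With the negative probe level subtracted its log2 fold change was -1.89. The call was lost with scaling by the negative probes (adjusted p = 0.0865; 0.00349 to 0.0865 over 17 alternatives). The target of the female-biased Cyp2b13 and Cyp2b9 was at 46.2, 41.6 and 28.8 CPM in NCD and 35.8, 26.8 and 60.6 in FFD regions, where FFD 3 was the highest of all. Its log2 fold change was 0.08 ± 0.24 SE (edgeR adjusted p = 0.845). The CAR-induced Cyp2b10 was under the limit in every region, at 13.5 to 19.9 CPM in NCD and 10.9 to 12.96 in FFD, and was not in the filtered table. Cyp2t4 had 28.2, 26.1 and 21.6 CPM in NCD and 20.2, 20.3 and 13.6 in FFD, over the limit in 1 region of each diet (log2 fold change -0.46 ± 0.19 SE, edgeR adjusted p = 0.102).

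Cyp2e1 and Cyp2f2 are the P450s most used as landmarks of the central and portal ends of the lobule. Cyp2e1 (chr7:140763819-140774990), which oxidises ethanol and other small molecules, was at 4852, 4495 and 4531 CPM in NCD and 2270.3, 4489.7 and 2294 in FFD regions. FFD 1 and FFD 3 lay far below the NCD regions, whereas FFD 2 nearly equalled NCD 2. The difference did not pass (log2 fold change -0.62 ± 0.25 SE, edgeR adjusted p = 0.0956). As a share of all counts, Cyp2e1 in FFD 2 (0.445%) was above every NCD region (0.379 to 0.434%). Without FFD 2 the log2 fold change was -1.02 with an adjusted p of 0.00545, and over 18 alternatives the adjusted p ran from 0.00545 to 0.651. FFD 2 also had the highest ratio of counts to deduplicated reads, 1.51. This ratio was 1.20 in FFD 1, 1.01 in FFD 3 and 0.996 to 0.997 in NCD regions. The part of the counts in excess of reads in the Cyp2e1 value, or in other FFD values, was not tested. Cyp2f2, which activates naphthalene, was at 436, 568 and 748 CPM in NCD and 333, 291 and 554 in FFD regions, where FFD 3 lay inside the NCD range. It did not pass (log2 fold change -0.58 ± 0.23 SE, edgeR adjusted p = 0.0957), and without FFD 3 it was -0.91 with an adjusted p of 0.00601 (0.00601 to 0.505 over 18 alternatives). Without NCD 3 it was -0.36 with an adjusted p of 0.296.

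The ratio of a central to a portal P450 in the same region does not depend on the scaling. The log2 ratio of Cyp2e1 to Cyp2f2 was 3.48, 2.98 and 2.60 in NCD and 2.77, 3.95 and 2.05 in FFD regions. The FFD regions spanned a wider range on both sides of NCD, and the mean differed by -0.10 (exact two-sided permutation p = 0.9, also 0.9 after Benjamini-Hochberg adjustment over the 2 ratios tested). The log2 ratio of Cyp1a2 to Cyp2f2 was 0.20, -0.20 and -0.44 in NCD and -1.04, -0.74 and -2.77 in FFD regions. All FFD ratios were below all NCD ratios, the mean differed by -1.37, and the exact two-sided permutation p of 0.1 (0.2 adjusted) is the smallest that 3 against 3 regions allow. Without FFD 3 the difference in this ratio was -0.74. Among 11 tested central genes outside the P450s, 5 were lower and 0 higher, including the glutamate transporter Slc1a2 (log2 fold change -2.09) and ornithine aminotransferase Oat (-0.83), with Lgr5 at -0.86 and Znrf3 at -0.56. Over all tested genes, edgeR called 11.1% lower and 5.94% higher. Lgr5 was above the limit in 1 NCD region and 0 FFD regions. At an unadjusted p under 0.05 the counts were again 5 and 0, as they were by both limma tests, and DESeq2 called 3 lower and 0 higher. Of the 7 central genes with a mean count above the limit, 3 were lower and 0 higher by edgeR. The 6 that did not pass included Glul (-0.20, edgeR adjusted p = 0.603). Glul was at 817, 655 and 312 CPM in FFD regions and 630 to 711 in NCD regions. Of 12 portal genes, 3 were lower, among them Etnppl (-2.77) and Hal (-1.11), and 2 were higher, Aldh1b1 (1.71) and Hsd17b13 (1.00). The summed central list was lowest in FFD 3 (876 CPM, against 1454 to 1782 in the other FFD regions), the region in which Cyp1a2 was lowest, but Cyp2e1 was about as low in FFD 1, where the central sum was 1782 CPM. The summed portal list was highest in FFD 3 (7693 CPM, against 3471 in FFD 1 and 4634 in FFD 2), the FFD region in which Cyp2f2 was highest. These sums lean on single genes. Glul had the highest level of the central list in every region. Pck1 had that of the portal list, with 782, 1403 and 2649 CPM in FFD 1 to 3.

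**Figure D3:**
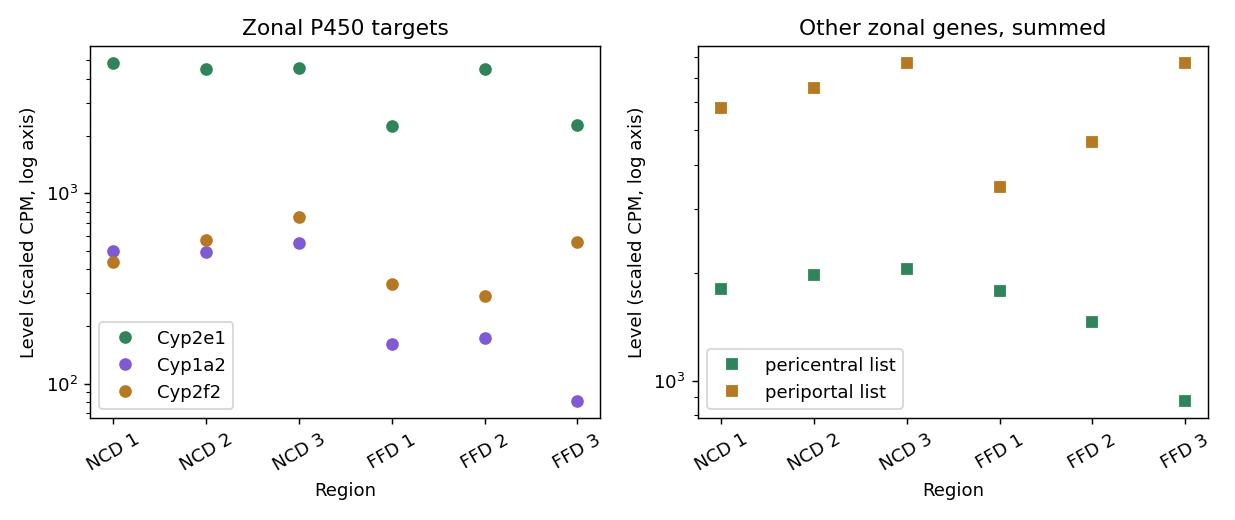
Levels in each region (CPM after upper quartile scaling, log axes) of Cyp2e1, Cyp1a2 and Cyp2f2 on the left, and the summed central and portal lists without P450s on the right. Cyp1a2 is lower in every FFD region, Cyp2e1 stays at 4489.7 CPM in FFD 2, and FFD 3 has the lowest central sum, 876 CPM.

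Of the 5 tested subfamilies with a single target, 2 were lower, Cyp2u and Cyp2r, whereas Cyp2e, Cyp2f and Cyp2t did not pass. The share of lower genes over all tested genes was 11.1%. Cyp2u1 (chr3:131290491-131304157), a hydroxylase of long-chain fatty acids, was at 121, 124 and 128 CPM in NCD and 55.7, 49.6 and 53.0 in FFD regions. Both diets were tight, and the gap between them was many times their spread. The fall was 2.36-fold (log2 fold change -1.24 ± 0.12 SE, edgeR adjusted p = 9.51e-06), with the smallest p of the set. Cyp2r1 (chr7:114550123-114563048), the microsomal hydroxylase that makes the circulating form of vitamin D, was at 60.3, 53.0 and 54.6 CPM in NCD and 34.7, 22.8 and 29.7 in FFD regions. All regions were above the limit and the diets did not overlap. It was 1.94-fold lower (log2 fold change -0.95 ± 0.15 SE, edgeR adjusted p = 0.00071), and -1.30 on the log2 scale with the negative probe level subtracted.

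The 9 targets that were not in the filtered table lay at or near the negative probes. Besides Cyp1b1 and Cyp2b10 they were Cyp2b19, the olfactory Cyp2g1, the epithelial Cyp2s1, Cyp2w1, Cyp2j8, Cyp2j11 and Cyp2j13. Their levels ranged from 6.10 CPM (Cyp2j11 in FFD 1) to 28.2 CPM (Cyp2g1 in NCD 1). Only Cyp1b1, Cyp2g1 and Cyp2j13 were over the limit, each in 1 region. In 4 of the 9, Cyp2b10, Cyp2b19, Cyp2g1 and Cyp2s1, all FFD regions lay below all NCD regions, which was also so for 38.2% of all genes left out of the filtered table. With no filter, Cyp2g1 was the only one of the 9 past the threshold (log2 fold change -0.67, edgeR adjusted p = 0.0142).

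Together the 33 targets took 1.05, 1.01 and 0.99% of all counts in NCD regions and 0.642, 0.822 and 0.598% in FFD regions (means 1.02 ± 0.028 and 0.688 ± 0.119, SD, n = 3). Cyp2e1 alone held 0.404% (SD 0.0275) and 0.291% (SD 0.133), which carried most of the spread between FFD regions. The other 32 targets held 0.612, 0.613 and 0.610% in NCD and 0.423, 0.378 and 0.389% in FFD regions, so both diets were tight without Cyp2e1. The sum of these 32 relative to the 7 redox partners and haem-binding partners of P450s (Por, the Cyb5 and Cyb5r genes, Pgrmc1 and Pgrmc2) was 2.08 (SD 0.016) in NCD and 1.28 (SD 0.029) in FFD regions. Relative to the summed hepatocyte markers it was 0.0610 (SD 0.0087) and 0.0624 (SD 0.0129), which overlapped. Alb and Apoa1 dominate that marker sum and were at 67704 and 20947 CPM in NCD and 35657 and 10492 in FFD. Without those 2 markers, a choice made after their values were seen, the ratio was 0.272, 0.259 and 0.220 in NCD and 0.201, 0.188 and 0.164 in FFD regions, without overlap. For all 33 targets, Cyp2e1 included, it was 0.464, 0.427 and 0.356 in NCD and 0.305, 0.409 and 0.253 in FFD regions, which overlapped. Sums add probes of unequal efficiency and are descriptions only.

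**Figure D4:**
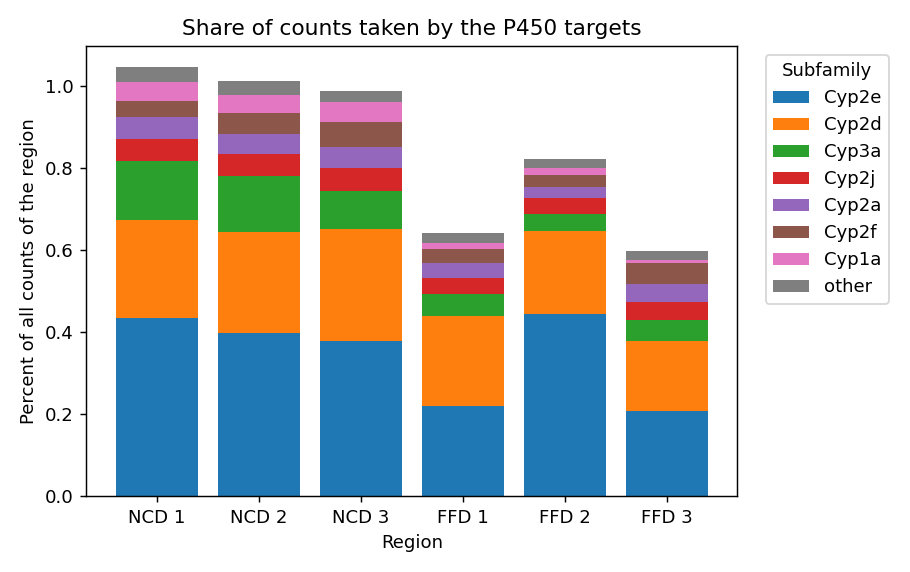
Percent of all counts in each region taken by the 33 P450 targets, stacked by subfamily. NCD bars reach 0.99 to 1.05% and FFD bars 0.598 to 0.822%. The Cyp2e block is taller in FFD 2 (0.445%) than in any NCD region (0.379 to 0.434%).

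The FFD regions did not fall by the same pattern. Of the 20 targets above the limit in all regions of a diet, FFD 2 was the lowest FFD region for 9, FFD 3 for 7 and FFD 1 for 4. Against the NCD mean, Cyp1a2 was at -2.67 on the log2 scale in FFD 3 and at -1.56 in FFD 2. Cyp2a4 ran the other way, at -0.48 in FFD 3 and -1.36 in FFD 2. Cyp2u1 and Cyp3a41a were the most even, with ranges of 0.17 and 0.20 over the FFD regions. Cyp2b13, Cyp1a2, Cyp2a22 and Cyp3a13 were the least even, with ranges of 1.18, 1.10, 1.08 and 1.07.

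**Figure D5:**
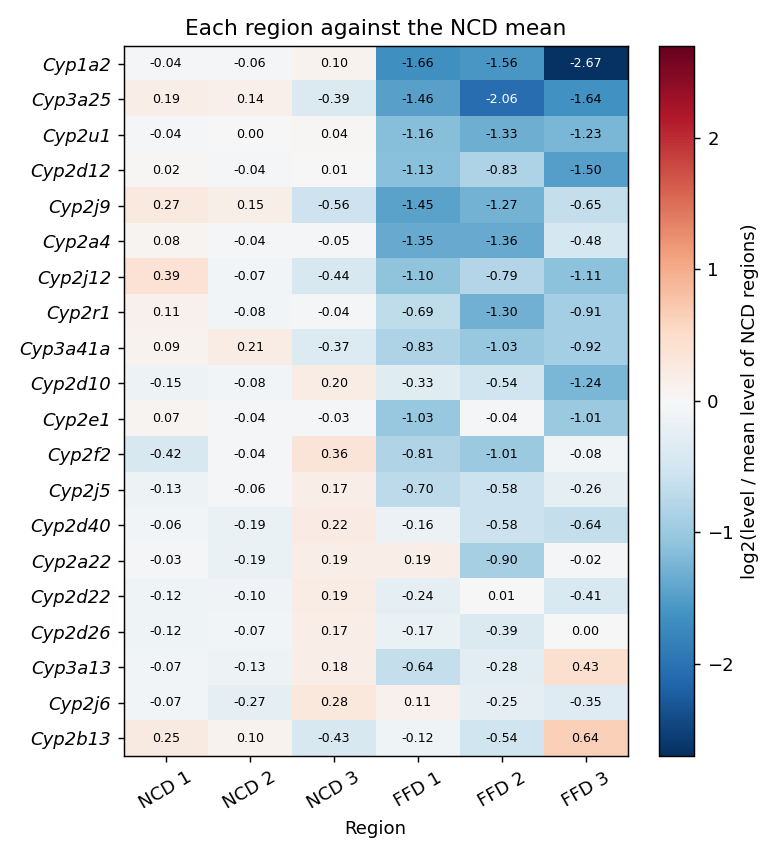
Log2 of each region's level over the mean level of the NCD regions, for the 20 P450 targets above the limit in all regions of a diet, ordered by their FFD mean; blue is below and red above the NCD mean. Cyp1a2 in FFD 3 (-2.67) and Cyp3a25 in FFD 2 (-2.06) are the lowest cells, and Cyp2b13 in FFD 3 (0.64) is the highest.

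Genes that work with or upstream of these P450s were read from lists. Over all genes with an adjusted p in each test, edgeR called 11.1% lower and 5.94% higher. DESeq2 called 3.99% lower and 6.4% higher. Of 6 tested AhR targets outside the set, 3 were lower and 0 higher (median log2 fold change -0.48), among them Ugt1a6b (-0.69) and the target that Selenbp1 shares with Selenbp2 (-1.09). At an unadjusted p under 0.05 the count of higher AhR targets was 1, and DESeq2 and both limma tests called 0 higher. That gene was Nqo1 (0.56, edgeR adjusted p = 0.0676), above the limit in 0 NCD and 3 FFD regions. Tiparp (-0.26) did not pass either, and Ahrr was under the limit in all 6 regions and not tested. Of 10 receptors and partners, 2 were lower, Ahr itself (-0.49, edgeR adjusted p = 0.0437) and Rxra (-0.42), and 1 was higher, and DESeq2 called 0 in either direction. The receptor genes Nr1i3 of CAR (-0.26) and Nr1i2 of PXR (0.13) did not pass. Of 14 liver factors, 4 were lower, Bcl6 (-1.31), Tcf7l2 (-0.60), Hnf4a (-0.51) and Foxa3 (-0.47), and 2 were higher, among them Ctnnb1 (0.42). DESeq2 called 1 lower and 2 higher in that list, whose median was 0.09. Of 14 CAR and PXR targets outside the P450s, 5 were lower and 1 was higher by edgeR, with a median of 0.10. At an unadjusted p under 0.05 the counts were 5 and 4, and by DESeq2 3 and 1. The carboxylesterase Ces2a (-2.31), Ugt2b35 (-0.98) and the transporter Slco1a4 (-0.96) were among the lower ones, and Aldh1a1 (0.73) was the higher one.

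Partner proteins and haem enzymes gave few calls, where edgeR called 11.1% lower and 5.94% higher over all tested genes. Of the 7 redox and haem-binding partners, 0 were lower and 0 higher by edgeR, DESeq2 and both limma tests, with 1 lower and 1 higher at an unadjusted p under 0.05. Their summed level was 3287 to 3538 CPM in NCD and 3047 to 3417 in FFD regions. Por was at 141 CPM in NCD and 179 in FFD (log2 fold change 0.34, edgeR adjusted p = 0.147), and Cyb5a, cytochrome b5, at 1425 and 1429. Of 12 genes of haem synthesis and breakdown, 0 were lower and 2 were higher by edgeR (1 and 3 at an unadjusted p under 0.05), both limma tests called the same numbers, and DESeq2 called 0 in either direction. Alas1, the rate-limiting enzyme of haem synthesis in liver, was at 172, 167 and 700.8 CPM in NCD and 668, 1266 and 976 in FFD regions. NCD 3 lay inside the FFD range (log2 fold change 1.48 ± 0.41 SE, edgeR adjusted p = 0.0236). Biliverdin reductase Blvra was the other higher gene (0.44), and it was above the limit in 0 NCD and 3 FFD regions.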

How the data were processed

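Expected counts per target are the values of the deposited probe-checked table, per the file headers, and a deposited filtered table holds the same counts for fewer targets by a rule not given in the sources used here. The deposited Q3 table is a signal scaled to each region's 75th percentile, as the labels' protocol names it. Per the file headers, nuclei, deduplicated reads and probes per target are counts, whereas the limit of quantitation is another quantity. The submitters' processing notes name GRCm38 and edgeR, with neither version nor role.

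Rounded counts of 13095 genes were tested with edgeR 4.0.16 (quasi-likelihood, R 4.3.3), upper quartile (percentile 75) scaling, no term besides diet, and a threshold of 0.05 after Benjamini-Hochberg adjustment over all genes. Variation between regions (biological coefficient) was 12.0%. CPM are counts over the scaled library. The SE is approximate, the log2 fold change over the square root of the F statistic. Targets that name no gene (12 in the full table, 0.0145 to 0.0192% of counts per region) were left out. Each P450 target had 1 probe, so levels of different targets are not comparable. Alternatives used other scalings, DESeq2 1.42.0, limma 3.58.1 (voom, and trend on log2 of the signal plus 1), other filters, background subtraction, a split by level that was added after seeing the data, and each region left out. Every P450 target was accounted for; those above the limit in all regions of a diet got values per region, and up to 4 called genes per list were named by smallest p, except a few that are not reported here. The members and lists were chosen with earlier results of these data known. Depth bears on counting error only, not on the variation between regions. The control without template was not analysed here.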

Additional observations from a re-analysis of the deposited data

How the results depend on the processing

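Over 18 alternatives, 9 calls (all but Cyp2b23, Cyp2d10 and Cyp2j5) kept their direction and passed in each. Negative probe scaling shrank some of them, to -0.52 for Cyp3a41a, -0.55 for Cyp2j12, -0.57 for Cyp2r1, -0.62 for Cyp2a4, -0.68 for Cyp2j9 and -0.71 for Cyp2d12. The count of lower P450 targets was 9 to 13, and 10 to 12 with each region left out in turn. The count higher was 0 throughout. At an unadjusted p under 0.05 it was 1 with negative probe scaling and 0 otherwise. The median log2 fold change of all genes was -0.11 with upper quartile, -0.01 with TMM, 0.0068 with total count and 0.28 with negative probe scaling, and that of the tested P450 targets was -0.60, -0.50, -0.48 and -0.20. With negative probe scaling the log2 fold changes of uncalled targets turned to 0.18 (Cyp2a22), 0.20 (Cyp2d22), 0.20 (Cyp2d26), 0.25 (Cyp2d34), 0.23 (Cyp2j6) and 0.28 (Cyp3a13). Cyp3a13 was also at 0.00063 with total count scaling and 0.0028 by DESeq2, and Cyp2d34 at 0.22 with background subtracted. Leaving out 1 region gave -0.40 to 0.085 for Cyp2a22, -0.30 to 0.33 for Cyp2b13, -0.28 to 0.094 for Cyp2d34, -0.30 to 0.016 for Cyp2j6 and -0.45 to 0.11 for Cyp3a13. The difference in the log2 ratio of Cyp2e1 to Cyp2f2 ran from -0.61 (without FFD 2) to 0.34 (without FFD 3). The summed share was 1.11% in NCD over the filtered table, and 1.27% in NCD and 0.809% in FFD with background subtracted. The cause of these shifts was not tested. No paired analysis was made because the labels tie no region to a mouse. Each of the 6 regions has its own number in the labels, and replicates 1 to 3 here are only names given in sample order. Targets near the limit are bounded by the negative probes, and 3 regions per diet limit the precision.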
